A study of Homo sapiens with 20 samples.

Results

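The matrix metalloproteinases (MMPs) and their tissue inhibitors (TIMPs) followed here are 7 proteases (MMP1, MMP2, MMP3, MMP10, MMP14, MMP15 and MMP16) and 3 inhibitors (TIMP1, TIMP2 and TIMP3), chosen by gene symbol, so that 10 of the 58870 genes of the RNA-seq table and 22 of 54563 consensus Cut&Run peaks are described. A peak was assigned to one of these genes when its centre lay in the gene or within 10 kb of its ends. RNA-seq compared A375 and 1205Lu, both established human melanoma cell lines, after transfer of non-targeting siRNAs (si-NT) or of siRNAs against FRA1 (si-FRA1), with 3 samples in each of the 4 groups. FRA1, encoded by FOSL1, is a FOS family subunit of the AP-1 transcription factor. Cut&Run, in which an antibody directs a nuclease to cut DNA next to a bound protein, was performed in both lines, with no siRNA named in the labels, with 3 FRA1 samples and 1 IgG control sample per line. The labels number the replicates but do not say that they were separate cultures, so the p-values measure the spread between these samples only. Each line was studied as bulk RNA, in which fewer cells expressing a gene and less RNA per cell cannot be told apart.

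MMPs are zinc proteases that cut extracellular matrix proteins and cell surface proteins. They are made as inactive proenzymes, are activated by removal of a propeptide, and are blocked by TIMPs, which occupy the active site. MMP1 is an interstitial collagenase, MMP3 and MMP10 are stromelysins, MMP2 is gelatinase A, and MMP14, MMP15 and MMP16 are membrane-anchored enzymes. AP-1 binds the TGAGTCA element, and genes of the collagenase and stromelysin group are textbook AP-1 targets.

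The RNA-seq samples held between 20573412 and 32518903 counts. FOSL1 was between 407 and 423 CPM (counts scaled to library size) in the 3 A375 si-NT samples and at 25.6 to 26.0 CPM after silencing. It went from 477 to 491 CPM down to 65.0 to 70.8 CPM in 1205Lu, so that the siRNA label of every RNA-seq sample held. Of 8 melanocytic markers, SOX10 was at 43.9 CPM in A375 and 912 CPM in 1205Lu with si-NT, MITF at 52.1 and 3.54 CPM, S100B at 0.991 and 426 CPM, and the pigment genes MLANA, PMEL, TYR and DCT were all under 1 CPM in both lines. Each of 3 keratinocyte markers averaged under 1 CPM in every group. PDGFRA, a fibroblast marker, was at 192 CPM in 1205Lu with DCN and LUM under 1 CPM, and CD68 at 77.9 CPM in A375 si-NT with PTPRC and CD3E under 1 CPM.

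The FRA1 peaks near these genes are introduced by their AP-1 elements. In 14 of the 22 peaks (63.6%) TGAGTCA was found on at least one strand, its reverse complement being TGACTCA, against 57.7% of all consensus peaks and 58.1% of those in the same width range. Within 100 bp of the peak centre it was present in 6 of 22 (27.3%), against 28.6% of all peaks. The share near the proteases and inhibitors was thus close to that of all peaks. The following windows were chosen because they carry the element in peaks that the results below turn on. Each is 61 bases of GRCh38 in the direction of the named gene, 5′ to 3′, with the element in capitals, and none overlaps an annotated exon.
MMP1 intron, chr11:102791862-102791922, minus strand: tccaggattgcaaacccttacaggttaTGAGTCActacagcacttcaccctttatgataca
MMP3 upstream peak 3, chr11:102849441-102849501, minus strand: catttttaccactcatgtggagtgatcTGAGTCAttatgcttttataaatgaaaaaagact
MMP3 upstream peak 4, chr11:102851502-102851562, minus strand: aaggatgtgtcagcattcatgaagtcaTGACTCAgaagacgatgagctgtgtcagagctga
MMP2 peak 1, chr16:55471582-55471642, plus strand: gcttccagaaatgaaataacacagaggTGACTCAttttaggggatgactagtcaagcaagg
MMP14 downstream peak, chr14:22851468-22851528, plus strand: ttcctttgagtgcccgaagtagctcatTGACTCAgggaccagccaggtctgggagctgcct
TIMP2 intron peak 1, chr17:78862152-78862212, minus strand: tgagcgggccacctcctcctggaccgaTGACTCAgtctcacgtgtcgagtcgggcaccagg
TIMP2 intron peak 3, chr17:78883392-78883452, minus strand: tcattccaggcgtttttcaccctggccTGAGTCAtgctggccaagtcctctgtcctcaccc
The element lay 2 bp from the centre of the MMP1 peak, 26 bp from that of MMP3 peak 3 and 44 bp from that of MMP3 peak 4, and farther out, at 101 to 161 bp, in the other 4 windows.

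The RefSeq promoter table, from 250 bases before to 50 after the start site, held 5 of the 10 genes (MMP10, MMP14, MMP15, TIMP1 and TIMP3) and not MMP1, MMP2, MMP3, MMP16 or TIMP2. TGAGTCA on either strand was in none of the 5 promoters and in 4.95% of all promoters of the table. MMP3, outside the table, holds it 67 bases before its start, in a peak described below. The looser TGANTCA was in the MMP10 promoter as TGAATCA, beginning 67 bases before the start, and in 7.71% of all promoters. TIMP1 is shown because a FRA1 peak sat over its start: from 141 to 55 bases before the start (GRCh38.p14, chrX:47582295-47582381, plus strand) its promoter held TGAGTAA, in capitals, a motif that was chosen after the sequence was seen and that 2.57% of all promoters hold.
TIMP1 promoter: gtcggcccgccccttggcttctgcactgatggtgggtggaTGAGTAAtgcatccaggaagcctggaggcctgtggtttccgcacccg

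The first comparison asked how much of each protease and inhibitor mRNA the lines held with si-NT. All 9 tested genes differed. MMP3 passed the filter on low counts only through its A375 samples, and it is described by its counts below. MMP15, MMP16, TIMP1, TIMP2 and TIMP3 were higher in 1205Lu (37.8% of tested protein-coding genes were called in that direction), and MMP1, MMP2, MMP3 and MMP14 were lower (44.0%). With most protein-coding genes called, being called was not particular to the family, and the sizes carry the description.

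The secreted collagenase and stromelysins were low in 1205Lu. MMP1 (chr11:102789401-102798160) was at 16.7, 15.6 and 18.0 CPM in the A375 si-NT samples and at 1.13, 1.29 and 0.944 CPM in 1205Lu. Its groups did not overlap, with a log2 difference of -3.90 ± 0.17 (SE, adjusted p = 8.98e-17). MMP3 (chr11:102835801-102843609) had 646, 734 and 711 counts in A375 and 1 count in each 1205Lu sample. The ratio of A375 over 1205Lu was 750 with an exact 95% interval from 256 to 3638, which covers counting error only. MMP10 (chr11:102770502-102780628), their neighbour, had 6, 5 and 11 counts in A375 and 4, 0 and 0 counts in 1205Lu and passed the filter on low counts in no comparison. MMP3 and MMP10 are close paralogs whose shared reads may have been divided in counting, so the few MMP10 counts are uncertain.

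MMP2 and MMP14, which codes for the enzyme that activates pro-MMP2, were nearly level between the lines. MMP2 (chr16:55389700-55506691) was at 95.2, 99.1 and 97.6 CPM in A375 and at 73.4, 72.8 and 70.1 CPM in 1205Lu, a log2 difference of -0.43 ± 0.04 (SE, adjusted p = 3.93e-11). The 1205Lu samples were all lower. MMP14 (chr14:22836560-22849041) was at 26.8, 28.6 and 26.7 CPM in A375 and at 25.3, 24.6 and 23.6 CPM in 1205Lu, with a log2 difference of -0.16 ± 0.06 (SE, adjusted p = 0.024). This smallest difference was not called with DESeq2 (adjusted p = 0.198), with upper-quartile scaling (0.0921), with a filter of 10 counts in every sample (0.126), without 1205Lu si-NT replicate 3 (0.111) or without A375 si-NT replicate 2 (0.0688).

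The other membrane enzymes and the inhibitors were higher in 1205Lu. MMP15 (chr16:58025754-58046901) was at 9.53, 12.8 and 9.15 CPM in A375 and 120, 112 and 118 CPM in 1205Lu, 11.2-fold higher (log2 difference 3.47 ± 0.07, adjusted p = 1.14e-23). TIMP1 (chrX:47582408-47586789) was at 173, 154 and 150 CPM in A375 and 848, 828 and 845 CPM in 1205Lu, 5.30-fold higher. No A375 sample of either gene reached a 1205Lu sample. MMP16 was 3.75-fold higher (95.2 ± 2.3 against 357 ± 4.4 CPM, SD, n = 3), TIMP3 (chr22:32801705-32863041) 3.62-fold higher (252 ± 3.4 against 911 ± 4.1 CPM) and TIMP2 (chr17:78852977-78925387) 1.57-fold higher (233 ± 2.0 against 366 ± 1.7 CPM), with adjusted p-values of 2.54e-27, 1.13e-29 and 1.09e-18.

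Levels of different genes were compared as CPM per kilobase of annotated exon. In both lines with si-NT the order began with TIMP1, TIMP3 and TIMP2, at 110, 54.8 and 37.5 CPM per kb in A375 and 581, 198 and 58.9 CPM per kb in 1205Lu. In A375 the proteases followed as MMP2 (20.7), MMP3 (15.8), MMP16 (7.86), MMP1 (6.13), MMP14 (5.92), MMP15 (2.48) and MMP10 (0.175). Only the neighbours MMP1 and MMP14 had overlapping samples there. In 1205Lu the order was MMP16 (29.5), MMP15 (27.6), MMP2 (15.3), MMP14 (5.30) and MMP1 (0.409), with MMP3 and MMP10 at the level of a few counts and overlapping. The inhibitors therefore had more mRNA per kilobase than any of the proteases in either line.

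**Figure D1:**
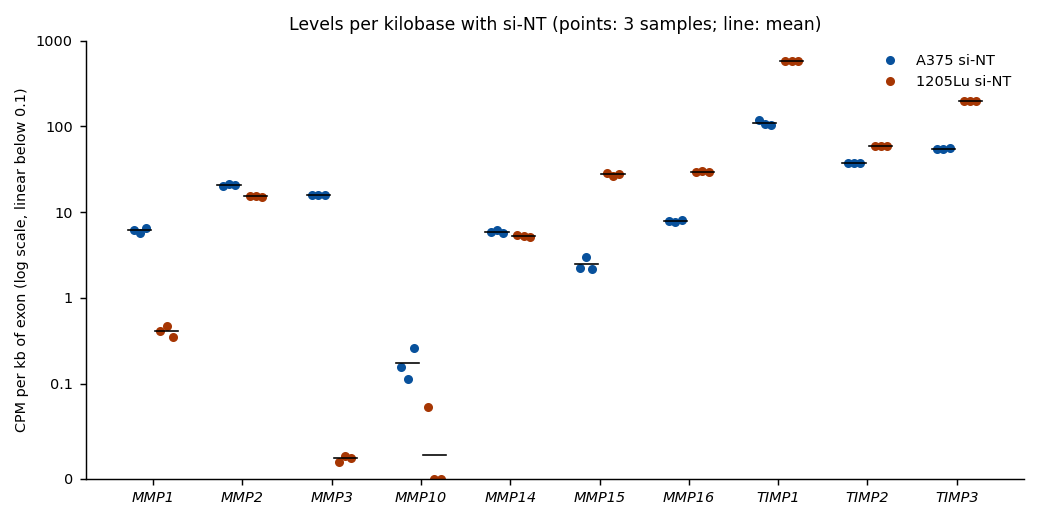
CPM per kilobase of exon (vertical axis, logarithmic above 0.1 and linear below) of the 10 genes in the 3 si-NT samples of A375 and of 1205Lu, each point a sample and each line the mean. The 3 TIMPs stand at the top in both lines, MMP3 is at 15.8 in A375 and close to 0 in 1205Lu, and MMP15 is at 2.48 in A375 and 27.6 in 1205Lu.

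Silencing FRA1 was compared next, first in A375. Of 9 tested genes 6 were higher with si-FRA1 (MMP2, MMP3, MMP14, MMP15, MMP16 and TIMP1, background 29.9% of protein-coding genes), 2 were lower (TIMP2 and TIMP3, background 27.8%) and MMP1 did not pass the test. The median log2 fold change, si-FRA1 over si-NT, was 0.41 over the 9 genes and 0.01 over all protein-coding genes tested. None of the 6 tested proteases fell.

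The largest rises in A375 were those of the membrane enzymes MMP16 and MMP15. MMP16 was at 95.9, 92.7 and 97.0 CPM in the si-NT samples and 185, 176 and 188 CPM in the si-FRA1 samples, 1.92-fold higher (log2 fold change 0.94 ± 0.03, SE, adjusted p = 1.87e-17). MMP15 was at 9.53, 12.8 and 9.15 CPM in the si-NT samples and 19.1, 20.3 and 20.1 CPM in the si-FRA1 samples (log2 fold change 0.91 ± 0.10, adjusted p = 6.42e-08). All si-FRA1 samples of both genes exceeded all si-NT samples. MMP14, the third membrane enzyme, was at 26.8, 28.6 and 26.7 CPM in the si-NT samples and 38.0, 33.8 and 37.4 CPM in the si-FRA1 samples, also without overlap (0.41 ± 0.06, adjusted p = 3.82e-06).

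Among the secreted enzymes, MMP3 was at 29.2, 29.0 and 29.4 CPM in the si-NT samples and 47.2, 46.2 and 50.9 CPM in the si-FRA1 samples (log2 fold change 0.71 ± 0.05, adjusted p = 5.57e-11). MMP2 was at 95.2, 99.1 and 97.6 CPM in the si-NT samples and 134, 131 and 134 CPM in the si-FRA1 samples (0.44 ± 0.03, adjusted p = 2.26e-11). The groups of both genes were fully separated, the si-FRA1 samples being higher. MMP1 was at 16.7, 15.6 and 18.0 CPM in the si-NT samples and 19.4, 18.0 and 19.9 CPM in the si-FRA1 samples, with overlapping groups (0.18 ± 0.08, adjusted p = 0.0606). It was called with upper-quartile scaling (adjusted p = 0.0395), without an expression filter (0.0497), without A375 si-NT replicate 3 (0.0349) and without A375 si-FRA1 replicate 2 (0.0414). MMP10 stayed at 5 to 11 counts in all 6 A375 samples.

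The inhibitors did not move in one direction in A375. TIMP1 was at 173, 154 and 150 CPM in the si-NT samples and 193, 190 and 179 CPM in the si-FRA1 samples (log2 fold change 0.24 ± 0.04, adjusted p = 2.05e-05), the lowest si-FRA1 sample lying just above the highest si-NT sample. TIMP2 was at 234, 230 and 233 CPM in the si-NT samples and 212, 215 and 220 CPM in the si-FRA1 samples (-0.11 ± 0.02, adjusted p = 0.000334). TIMP3 was at 251, 249 and 255 CPM in the si-NT samples and 199, 199 and 195 CPM in the si-FRA1 samples (-0.35 ± 0.02, adjusted p = 1.12e-11). For TIMP2 and TIMP3 every si-FRA1 sample was below every si-NT sample.

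In 1205Lu 8 of the genes were tested. MMP16, TIMP1 and TIMP2 were higher with si-FRA1 (3 genes, background 24.0%), MMP1 and TIMP3 were lower (2 genes, background 23.0%), and MMP2, MMP14 and MMP15 did not pass. The median log2 fold change over the 8 genes was 0.03. The counts in both directions were not far from what the background gives for 8 genes, and the sizes differ widely between members.

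MMP1 showed the largest fold change of the tested members in 1205Lu. It had 34, 29 and 23 counts (1.13, 1.29 and 0.944 CPM) with si-NT and 10, 6 and 1 counts (0.486, 0.267 and 0.0477 CPM) with si-FRA1. Every si-FRA1 sample was lower, and the log2 fold change was -2.07 ± 0.53 (SE, adjusted p = 0.00348). The value rests on few reads: it was -1.58 (adjusted p = 0.0178) without si-FRA1 replicate 3 and -2.78 (adjusted p = 0.00187) without si-FRA1 replicate 1, and MMP1 dropped out of the test when 10 counts were required in every sample. WTAPP1, a pseudogene whose exons overlap those of MMP1 and MMP3 on the opposite strand, had 1 to 4 counts with si-NT and 0 to 2 with si-FRA1 in 1205Lu, and the strand setting of the counting is not given in the sources used here. MMP3 had 1, 1 and 1 counts with si-NT and 2, 1 and 2 with si-FRA1, and MMP10 had 4, 0 and 0 and then 0, 0 and 2, so neither was tested.

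TIMP3, a matrix-bound inhibitor, had the largest fold change in 1205Lu among the tested genes after MMP1. It was at 909, 915 and 908 CPM in the si-NT samples and 495, 487 and 501 CPM in the si-FRA1 samples in 1205Lu. The groups were far apart, at 54.3% of the si-NT mean (log2 fold change -0.90 ± 0.02, SE, adjusted p = 7.93e-19). TIMP3 lies within an intron of SYN3 on the opposite strand, without shared exons, and SYN3 had 32 to 74 counts in the 1205Lu samples, against 10189 or more for TIMP3.

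The risers of 1205Lu were modest. MMP16 was at 354, 362 and 355 CPM in the si-NT samples and 440, 443 and 439 CPM in the si-FRA1 samples (0.29 ± 0.02, adjusted p = 1.75e-10). TIMP2 was at 365, 364 and 367 CPM in the si-NT samples and 421, 416 and 399 CPM in the si-FRA1 samples (0.15 ± 0.02, adjusted p = 9.51e-06). TIMP1 was at 848, 828 and 845 CPM in the si-NT samples and 917, 932 and 910 CPM in the si-FRA1 samples (0.11 ± 0.02, adjusted p = 7.37e-06). None of these 3 genes had overlapping groups. CEP295NL, which shares exons with TIMP2 on the same strand, had 46 to 107 counts in any sample, against 5156 or more for TIMP2.

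The genes that did not pass in 1205Lu overlapped between groups. MMP2 was at 73.4, 72.8 and 70.1 CPM in the si-NT samples and 73.1, 74.1 and 69.1 CPM in the si-FRA1 samples (-0.02 ± 0.04, adjusted p = 0.766). MMP14 was at 25.3, 24.6 and 23.6 CPM in the si-NT samples and 24.5, 24.8 and 25.3 CPM in the si-FRA1 samples (0.00 ± 0.06, adjusted p = 0.983). MMP15 was at 120, 112 and 118 CPM in the si-NT samples and 115, 126 and 130 CPM in the si-FRA1 samples (0.07 ± 0.04, adjusted p = 0.199), and was called, among the alternatives run, only without si-FRA1 replicate 1 (0.12, adjusted p = 0.0244).

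**Figure D2:**
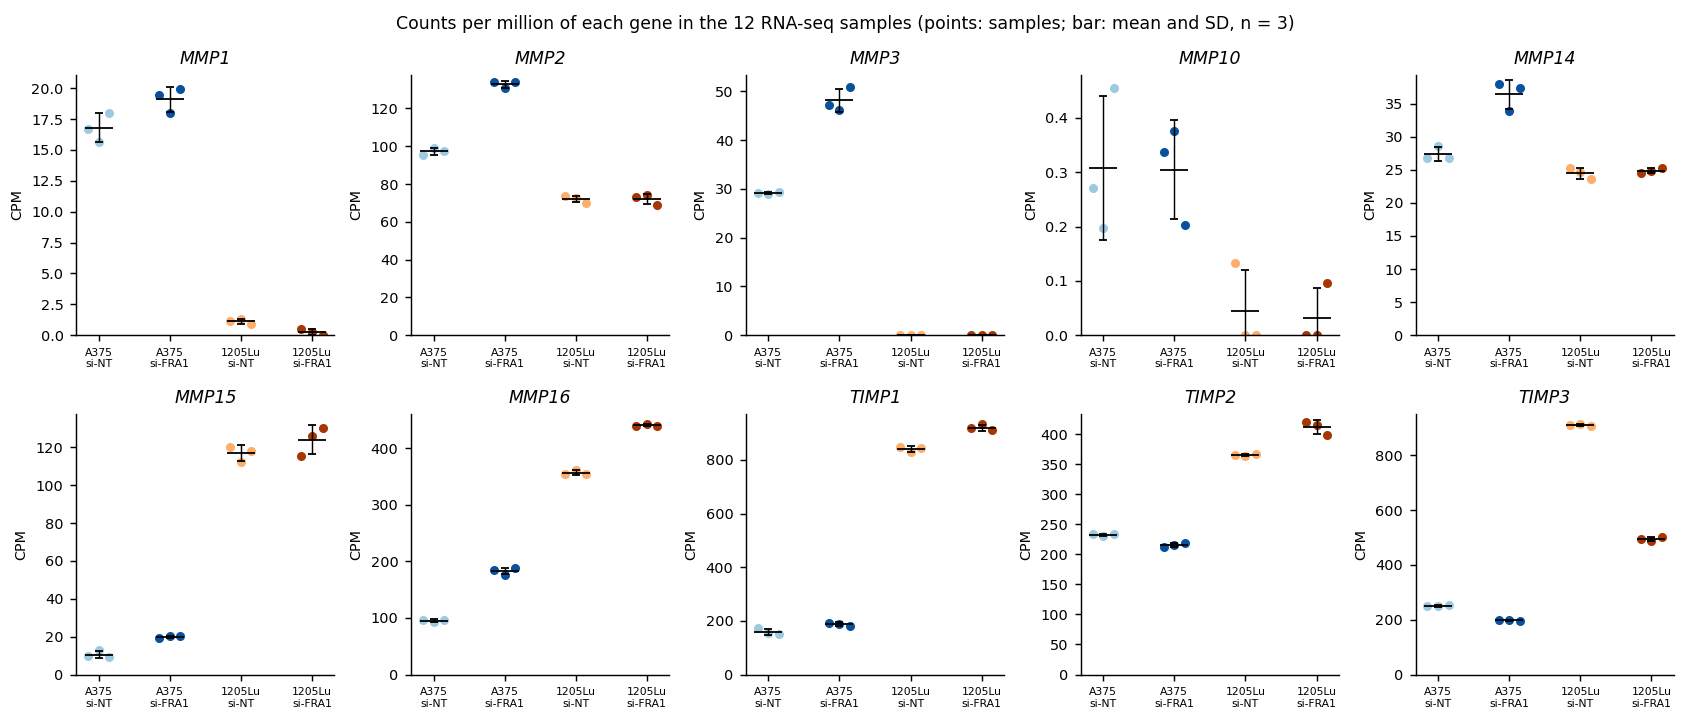
CPM (vertical axes, each starting at 0) of the 10 genes in the 12 RNA-seq samples, each point a sample, with the mean and SD of 3 samples per group. MMP16 is higher with si-FRA1 in both lines, TIMP3 falls to 54.3% of its si-NT mean in 1205Lu, and MMP3 is at most 2 counts in every 1205Lu sample.

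Whether a gene responded differently in the lines was tested as the interaction, the log2 fold change in 1205Lu minus that in A375. It was called for 7 of 9 genes, 1 with a more positive response in 1205Lu (TIMP2, background 19.9%) and 6 with a more negative one (MMP1, MMP2, MMP14, MMP15, MMP16 and TIMP3, background 18.9%). For MMP2, MMP14 and MMP15 this was a rise in A375 and no called change in 1205Lu, with interactions of -0.45 ± 0.05 (SE, adjusted p = 7.14e-08), -0.39 ± 0.09 (adjusted p = 0.000876) and -0.83 ± 0.10 (adjusted p = 4.97e-07). MMP16 rose in both lines and by less in 1205Lu (-0.64 ± 0.04, adjusted p = 4.31e-13). TIMP3 fell in both lines and by more in 1205Lu (-0.53 ± 0.03, adjusted p = 1.00e-13). MMP1 had an interaction of -2.24 ± 0.38 (adjusted p = 4.17e-05). TIMP2 fell in A375 and rose in 1205Lu, with an interaction of 0.28 ± 0.03 (adjusted p = 1.72e-07). For TIMP1 it was -0.11 ± 0.05 (adjusted p = 0.0803), and it was called with upper-quartile scaling (0.0104), with the filter of 10 counts (0.0186), without A375 si-NT replicate 1 (0.000753) and without A375 si-FRA1 replicate 3 (0.0394). MMP3, also not called, entered this test only through its A375 counts. With 1 or 2 counts in each 1205Lu sample, no response is read for it there. FOSL1 itself was left at 6.22% of its si-NT mean in A375 and 14.1% in 1205Lu, and the part of this unequal silencing in the interactions was not tested.

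**Figure D3:**
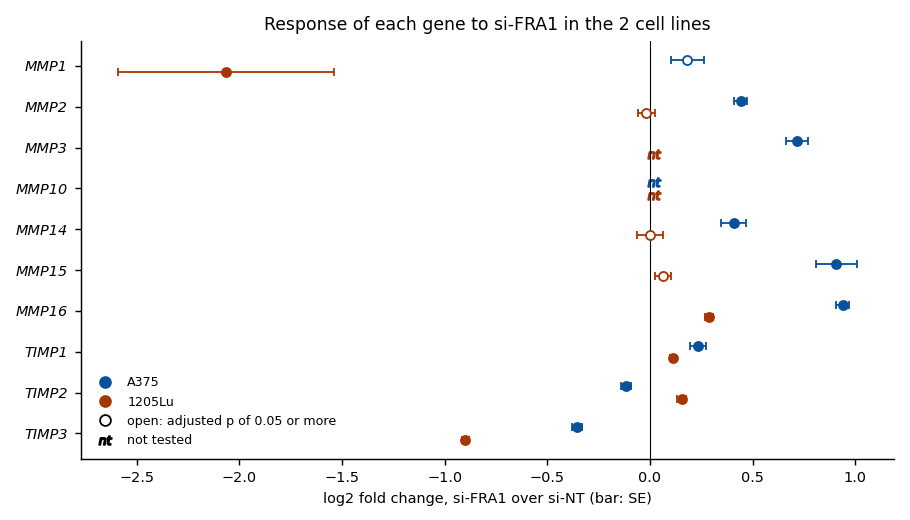
Log2 fold change with si-FRA1 over si-NT (horizontal axis, bars are the SE) of the 10 genes in A375 and 1205Lu, filled points having an adjusted p under 0.05 and nt marking genes that were not tested. MMP1 in 1205Lu lies at -2.07, the 6 called rises of A375 lie between 0.24 and 0.94, and TIMP3 is below 0 in both lines.

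The rest of the family and its regulators were counted from lists. Of the 17 other MMP and TIMP genes, 6 were tested in A375, where 1 rose (background 29.9%) and none fell, and 7 in 1205Lu, where 2 rose (background 24.0%) and none fell. With so few genes tested, nothing is read from these shares. MMP17, a glycolipid-anchored enzyme, was one of the genes that rose in 1205Lu (log2 fold change 0.13 ± 0.04, adjusted p = 0.010) at 92.7 CPM with si-NT, against 0.975 CPM in A375. The other two, named after their values were seen because they averaged under 100 counts, were MMP11, stromelysin 3, in A375 (0.96 ± 0.29, adjusted p = 0.00741) and MMP23B in 1205Lu (1.08 ± 0.41, adjusted p = 0.0434). Of 20 regulators of MMPs, 10 of 18 tested rose and 3 fell in A375 (backgrounds 29.9% and 27.8%), and 7 of 16 tested rose and 2 fell in 1205Lu (24.0% and 23.0%). SPOCK1, a testican proteoglycan, rose in A375 (0.86 ± 0.04) and in 1205Lu (0.58 ± 0.03), as did THBS1, thrombospondin 1, by 0.68 ± 0.02 and 1.03 ± 0.01. A2M, the broad protease inhibitor alpha-2-macroglobulin, rose by 2.06 ± 0.07 in 1205Lu and by 1.64 ± 0.21 in A375, where it averaged under 100 counts and is named after its values were seen. LRP1, the endocytic receptor that clears MMPs and their complexes, fell in A375 (-0.73 ± 0.02), as did CD44, a hyaluronan receptor (-0.44 ± 0.02), and CAV1, caveolin 1 (-0.21 ± 0.02). In 1205Lu LRP1 and CAV1 rose, by 0.13 ± 0.03 and 0.36 ± 0.05. ITGB3, the integrin beta 3 subunit, rose in A375 (0.75 ± 0.10) and fell in 1205Lu (-0.51 ± 0.02), where CD44 fell by 0.049 on the log2 scale.

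Of 26 other metzincins, the related ADAM, ADAMTS and astacin proteases, 9 of 23 tested rose and 1 fell in A375 (backgrounds 29.9% and 27.8%), and 8 of 21 tested rose and none fell in 1205Lu (24.0% and 23.0%). ADAMTS5, an aggrecanase, rose in A375 by 1.58 ± 0.04 and ADAMTS6, of the same family, fell (-1.48 ± 0.10). In 1205Lu they were at -0.12 and -0.09 and did not pass the test. ADAM10, a sheddase, rose in both lines (0.59 ± 0.03 and 0.54 ± 0.03), as did ADAMTS1, by 0.50 ± 0.05 in A375 and 1.17 ± 0.06 in 1205Lu. The adjusted p-values of all rises and falls named among regulators and metzincins were under 0.05. The median log2 fold changes of the regulators were 0.20 in A375 and 0.11 in 1205Lu, and those of the metzincins 0.44 and 0.27, against 0.01 and 0 over all protein-coding genes tested.

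By Euclidean distance over the 12 samples of centred log2 CPM, the genes with the profile nearest to TIMP3 were KIAA1217 (0.35), CKAP2L (0.37) and ANKRD36 (0.42). Those nearest to MMP14 were RPL30 (0.20), TSHZ1 (0.20) and DCAF13 (0.21), among 9326 candidates. For MMP1 the nearest, SAMHD1, FAT3 and TNS1, lay at 1.14 to 1.22, so that none followed MMP1 closely. These distances are descriptions over samples that share 2 lines and 2 treatments.

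FRA1 occupancy was then read from the Cut&Run counts. A peak was called enriched in a line when all 3 FRA1 samples reached 10 counts and also 4 times the sum of the IgG count and 1, a description with no test since each line had 1 IgG sample. Of the 22 peaks 20 were enriched in A375 (background 57.4%), 3 in 1205Lu (background 7.09%) and the same 3 in both lines (background 4.50%). The counts in all peaks totalled 3354095 to 5316527 per FRA1 sample in A375 and 583750 to 897407 in 1205Lu, against 383994 and 314569 in IgG, so a peak had fewer counts with which to pass in 1205Lu. The A375 FRA1 libraries were also far deeper than the IgG library, which makes an unscaled limit easier to pass there. None of the A375 calls held with libraries scaled to the same total in peaks, which also removes enrichment common to all peaks. MMP15 had no peak. The 3 peaks enriched in 1205Lu by the unscaled limit lay near MMP2 and TIMP2.

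The peaks near MMP1 and MMP3 were enriched in A375 only. The MMP1 peak lay in an intron 6.3 kb inside the gene, with another annotated MMP1 start 0.9 kb from its centre. It had 38, 64 and 57 counts and 7 in IgG in A375, and 4, 0 and 1 counts and 3 in IgG in 1205Lu. MMP3 peak 4, 7.9 kb upstream of the start, had 136, 213 and 202 counts and 13 in IgG in A375, and 5, 5 and 6 counts and 4 in IgG in 1205Lu. MMP3 peak 3, 5.9 kb upstream, had 52, 83 and 59 counts and 8 in IgG in A375, and 2, 2 and 1 and 4 in IgG in 1205Lu. All 3 peaks carry the element printed above, and their 1205Lu samples did not exceed 6 counts. A further MMP3 peak over the start site had 29, 31 and 34 counts with 5 in IgG in A375 and at most 3 counts in 1205Lu, and it too holds the element, 72 bp from its centre. MMP1, MMP3 and these peaks were thus low together in 1205Lu, over 2 genes of 1 locus and with shallower libraries. The median over all consensus peaks was 5 to 6 counts in those FRA1 samples, so low counts were not particular to these peaks.

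MMP10 peak 1, downstream of that gene, had 296, 457 and 394 counts and 31 in IgG in A375, and 21, 39 and 31 counts and 11 in IgG in 1205Lu. MMP2 peak 1, 7.5 kb before the main start and within an intron of longer isoforms, had 308, 472 and 337 counts and 24 in IgG in A375 and 13, 25 and 16 counts and 14 in IgG in 1205Lu. MMP2 peak 2, in an intron, had 14, 23 and 23 counts and 2 in IgG in A375 and 12, 20 and 17 counts and 2 in IgG in 1205Lu. It was the one MMP peak enriched in both lines, its lowest count in 1205Lu being exactly at the limit, and it held no TGAGTCA. MMP14 had 1 peak, 14.8 kb from its start beyond the gene end, with 29, 43 and 32 counts and 2 in IgG in A375 and 5, 4 and 8 and 3 in IgG in 1205Lu.

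MMP16 had 6 intronic peaks, and 5 of them were enriched in A375. The strongest, peak 4, had 102, 197 and 156 counts and 7 in IgG there, and 6, 6 and 1 counts and 7 in IgG in 1205Lu. None of the 6 peaks exceeded 7 counts in a 1205Lu FRA1 sample, where the median over all consensus peaks was 5 to 6 counts. MMP16 mRNA was 3.75-fold higher in that line, and a relation between the peaks and the mRNA was not tested.

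TIMP2 carried the peaks with the highest counts. Peak 1, in an intron 63.1 kb inside the gene, had 358, 472 and 422 counts and 16 in IgG in A375 and 164, 330 and 286 counts and 8 in IgG in 1205Lu. Peak 3, in an intron 41.8 kb inside, had 492, 762 and 600 counts and 20 in IgG in A375 and 106, 164 and 123 counts and 13 in IgG in 1205Lu. Both were enriched in both lines, and each lowest FRA1 count was at least 7.57 times the IgG count plus 1. Peak 4, 9.5 kb upstream, had 515, 813 and 648 counts and 28 in IgG in A375 and 135, 198 and 146 counts and 40 in IgG in 1205Lu, short of the limit there. TIMP2 mRNA fell with si-FRA1 in A375 and rose in 1205Lu, as given above.

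TIMP1 and TIMP3 each had 1 peak near the start. The TIMP1 peak, centred 101 bases before the start, had 28, 41 and 40 counts and 6 in IgG in A375 and 11, 26 and 20 counts and 4 in IgG in 1205Lu. The TIMP3 peak, in an intron 2.0 kb inside the gene, had 33, 61 and 49 counts and 4 in IgG in A375 and 13, 15 and 19 counts and 9 in IgG in 1205Lu. Both were enriched in A375 only, the TIMP1 peak with its lowest count exactly at the limit. In raw counts all FRA1 samples of 1205Lu lay above IgG. Those libraries were deeper, with 583750 to 897407 counts in peaks against 314569 in IgG, so no binding in 1205Lu is read from this. Their centres also lie in the genes SYN1 and SYN3.

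The peaks were compared between the lines by edgeR after scaling each library (TMM), with an absolute log2 difference over 1. IgG counts did not enter this test, which compares scaled FRA1 counts only. More FRA1 signal in A375 was called at 10 of 22 peaks (background 26.3%) and more in 1205Lu at 6 (background 20.6%). Called in A375 were the MMP1 peak, all 4 MMP3 peaks, MMP16 peaks 3 to 6 and MMP2 peak 1. The log2 difference, 1205Lu minus A375, was -1.67 ± 0.24 (SE, adjusted p = 1.99e-06) at MMP2 peak 1. At the other 9 of these 10 peaks every 1205Lu FRA1 count was under 10. Over all consensus peaks the median in a 1205Lu FRA1 sample was 5 to 6 counts. These 9 peaks could pass the filter on low counts through their A375 counts alone, so no size is read for them. The 6 peaks called in 1205Lu were MMP2 peaks 2 and 3, TIMP2 peaks 1 and 2, and the TIMP1 and TIMP3 peaks. Of these, MMP2 peak 3, TIMP2 peak 2 and the TIMP1 and TIMP3 peaks did not meet the limit over IgG in 1205Lu. The call at MMP3 peak 1 (adjusted p = 0.0393) was lost with DESeq2 (adjusted p = 0.165), without A375 FRA1 replicate 1 (0.129) or 3 (0.0764) and without 1205Lu FRA1 replicate 2 (0.244) or 3 (0.0754), and that at MMP3 peak 2 with DESeq2 (0.0522). Scaling by total counts in peaks gave 11 calls in A375 and 4 in 1205Lu. These 4 were MMP2 peaks 2 and 3, TIMP2 peak 1 and the TIMP1 peak, with log2 differences of 2.21, 2.41, 1.78 and 1.56. TIMP2 peak 2 lost its call there (adjusted p = 0.0804), without A375 FRA1 replicate 2 (0.0614) or 3 (0.0620) and without 1205Lu FRA1 replicate 3 (0.174), and its 1205Lu FRA1 counts (5, 6 and 8) were below the 9 of IgG. The TIMP3 peak was at 0.91 with total counts, under the limit of 1. All 6 of these differences are relative to scaled libraries, since the mean raw counts were lower in 1205Lu. FRA1 replicates 2 and 3 of 1205Lu were summed into 1 library for this test, since their counts differed by a chi-square of 1.007 per degree of freedom over peaks with at least 50 counts (1.06 with at least 20), against 1.49 or more for the other pairs of that line at 50. Kept as separate libraries, these 1205Lu replicates gave the same counts of 10 and 6. The 3 A375 FRA1 samples were not summed, although their pairs were also low, at 1.063 to 1.265 over peaks with at least 50 counts.

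**Figure D4:**
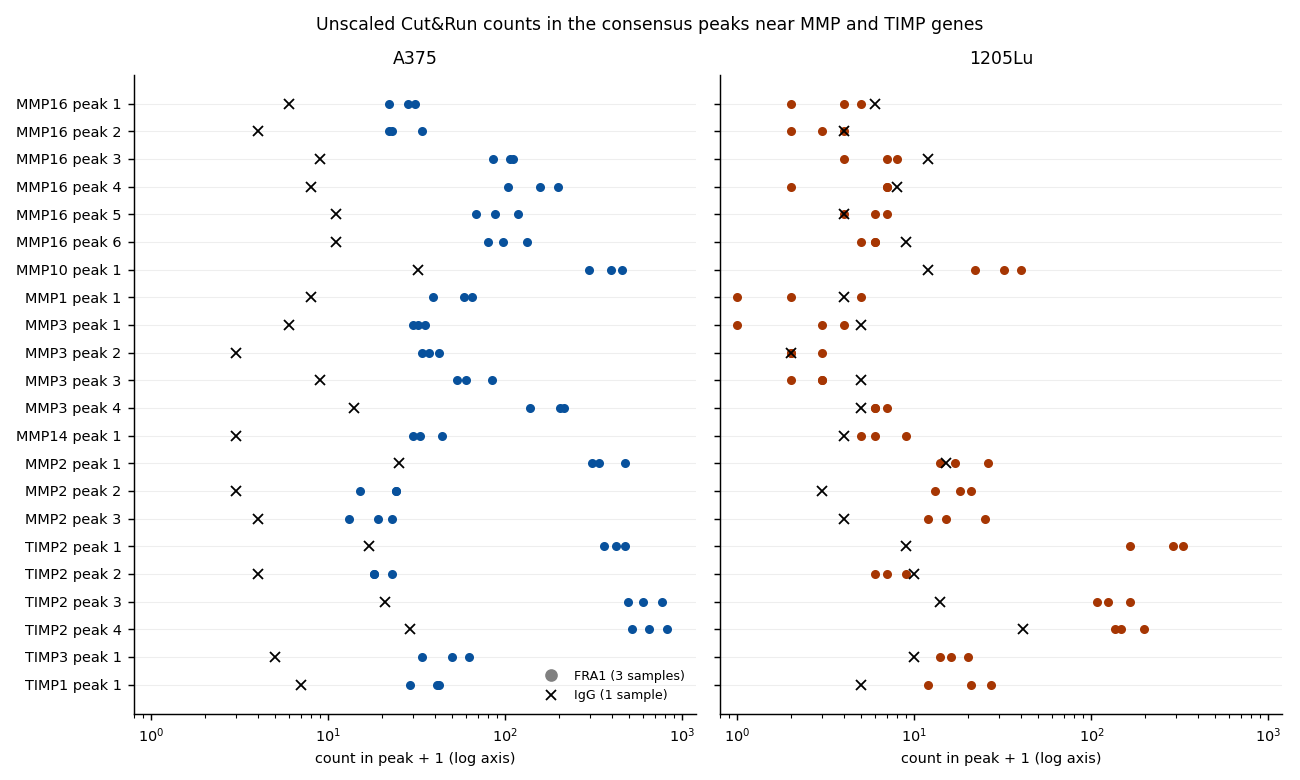
Unscaled Cut&Run counts plus 1 (horizontal log axis) in the 22 consensus peaks near the MMP and TIMP genes, with 3 FRA1 samples as points and the IgG sample as a cross, in A375 and in 1205Lu. The FRA1 points lie right of IgG at all peaks in A375, and TIMP2 peaks 1 and 3 and MMP2 peak 2 are the 3 that meet the limit in 1205Lu as well.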

How the data were processed

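RNA-seq was measured in 12 samples and Cut&Run in 8. For RNA-seq the authors trimmed reads with cutadapt 1.8.1, aligned them to GRCh38 with STAR 2.7.7a and deposited RSEM 1.3.0 expected counts per gene on Gencode v30, which are whole numbers here and were not normalized. For Cut&Run the authors aligned reads with Bowtie2 2.4.1, called peaks with MACS2 2.1.1.20160309 and deposited raw read counts per consensus peak. The sources used here do not state if samples were pooled for peak calling. Versions are from the submitters' processing notes.

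Here counts were tested with edgeR 4.0.16 in R 4.3.3 (filterByExpr, TMM, glmQLFit and glmQLFTest, Benjamini-Hochberg over all genes or peaks tested), each line on its own for silencing and all 12 samples for the interaction and the si-NT comparison. A call is an adjusted p under 0.05, and fold changes are si-FRA1 over si-NT. CPM used TMM-scaled library sizes, background percents cover protein-coding genes or all peaks, and gene models, exon lengths and windows came from GENCODE 44. The scripts were tested on simulated data. DESeq2 1.42.0, upper-quartile scaling, other filters and windows, and leaving out each sample were alternatives.

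All 10 members are named. From each list the 3 largest called rises and falls were eligible to be named, given a mean of 100 counts or more. The members, lists and rules were chosen with earlier results of these data known. Counting intervals cover counting error only. With 3 samples per group the precision is that of the SE given.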

Additional observations from a re-analysis of the deposited data

Results flagged for a closer look

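The response to FRA1 silencing differed between A375 and 1205Lu, by the interaction test of edgeR over all genes, for 7 members. Of all protein-coding genes tested, 19.9% were called with a more positive response in 1205Lu and 18.9% with a more negative one. The log2 difference, 1205Lu minus A375, was -2.24 for MMP1, -0.45 for MMP2, -0.39 for MMP14, -0.83 for MMP15, -0.64 for MMP16, 0.28 for TIMP2 and -0.53 for TIMP3, each with 3 samples per group. MMP1 in 1205Lu had 86 counts in all si-NT samples and 17 in all si-FRA1 samples together, a ratio of 4.20 with an exact 95% counting interval from 2.48 to 7.54. TIMP2 was the member called in opposite directions in the 2 lines.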

How the results depend on the processing

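Counts of called members stayed within 1.5 times the reported ones for silencing in A375 (8 reported, 8 to 9), silencing in 1205Lu (5 reported, 4 to 6), the interaction (7 reported, 7 to 8) and the si-NT comparison (9 reported, 6 to 9), under every alternative run. No member changed sign in a called result there, and leaving out single samples moved no count beyond these ranges. The replicate block gave 8 calls in A375, 5 in 1205Lu and 8 for the interaction, adding TIMP1 (adjusted p = 0.0220). Same-numbered si-NT and si-FRA1 samples correlated at -0.001 to 0.096 and not every sample best with its own number, so the numbers were not taken as pairs.

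Peak results depended on limits and scaling. In A375, 1205Lu and both lines the enriched peaks numbered 22, 6 and 6 with 2 times IgG, 10, 1 and 1 with 8 times, and 0, 1 and 0 with libraries scaled to the same total in peaks. A window of 50 kb gave 30, 6 and 3. Peaks enriched in either line numbered 20 as reported, 10 with 8 times, 1 with scaling and 33 with 50 kb. Between the lines 16 peaks were called as reported and 5 (3 more in 1205Lu, 2 more in A375) with at least 10 counts in every FRA1 sample, a filter that leaves fewer peaks to test, and without scaling 0 were called in 1205Lu. Leaving out the scaling sets libraries of unequal depth side by side and moves every peak toward A375 by construction. FRA1 replicates 2 and 3 of 1205Lu stayed summed into 1 library there, so the 1205Lu values are higher than per sample. The signs of that setting therefore bear on depth and on the summing, and not on single peaks. They turned at MMP14 peak 1 (-2.01), TIMP2 peaks 1 to 4 (-0.098, -0.97, -1.65 and -1.46), the TIMP3 peak (-1.02) and the TIMP1 peak (-0.35), and with the 10-count filter at TIMP2 peaks 3 (-0.31) and 4 (-0.11). Leaving out single samples gave 14 to 16 calls between the lines and 20 to 22 enriched peaks in A375 and 3 to 4 in 1205Lu. The element was in 6 of 22 peaks within 100 bp of the centre. The cause of the other shifts was not tested. The shallow 1205Lu libraries, with a median of 5 to 6 counts per peak, limit what can be seen as bound there.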
